A study of Homo sapiens with 6 samples.

Results

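The miR-29 family was examined in the m7G-RIP-seq data of Caco-2 cells, a human line derived from a colorectal adenocarcinoma. Its members were taken by name from the deposited count table, as both arms of miR-29a, miR-29b and miR-29c, which gave 7 of the 2588 miRNA entries listed. miR-29a, miR-29b and miR-29c each have a 3p entry. The 5p arm of miR-29b has an entry for each of its precursors, miR-29b-1-5p and miR-29b-2-5p. Total RNA came from Caco-2 cells for which the labels give no treatment, and decapped and heat-denatured RNA was immunoprecipitated with an antibody against 7-methylguanosine (m7G) under the protocol of the study. The small RNA of 3 input samples and of 3 immunoprecipitated samples (m7G-RIP) was sequenced. The series has no mock immunoprecipitation with another antibody among the samples analysed here, so enrichment is measured against input only. The labels do not say whether the replicates came from separate cultures, so p-values measure the spread between these libraries, which may be technical.

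miRNAs are cut from hairpin precursors, and each hairpin can release a mature strand from its 5p and from its 3p side. The 3p strand of miR-29 is usually the one loaded into Argonaute, where its seed (bases 2 to 8) pairs with target mRNAs. The family is known for repressing the DNA methyltransferases DNMT3A and DNMT3B, collagens and other extracellular matrix genes, and the anti-apoptotic gene MCL1. m7G is a methylated guanosine at the N7 position, well known from mRNA caps, tRNA and rRNA, and the study asked which mature miRNAs carry it internally.

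The mature sequences are shown first, because the 3 entries of the 3p arm are nearly the same RNA while the 5p entries differ, and because guanosine is the base that can carry the mark. They are from RefSeq on GRCh38.p14, are written 5′ to 3′ as RNA, and have the seed in capitals.
hsa-miR-29a-3p: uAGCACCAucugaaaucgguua
hsa-miR-29b-3p: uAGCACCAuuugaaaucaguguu
hsa-miR-29c-3p: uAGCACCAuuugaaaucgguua
hsa-miR-29a-5p: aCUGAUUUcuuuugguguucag
hsa-miR-29b-1-5p: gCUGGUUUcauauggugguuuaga
hsa-miR-29b-2-5p: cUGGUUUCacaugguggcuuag
hsa-miR-29c-5p: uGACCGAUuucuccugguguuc

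All 3 entries of the 3p arm have the seed AGCACCA, and each has 4 G. miR-29a-3p and miR-29c-3p differ by a single base, C10U, with positions counted from 1 at the 5′ end of the first miRNA named. Against miR-29a-3p, miR-29b-3p has 4 changes (C10U, G18A, U21G and A22U) over the 22 aligned bases. miR-29b-3p ends in AGUGUU, a motif known for directing this miRNA to the nucleus, and 4 of 714 tested miRNAs with a mature sequence in RefSeq held these letters. The 5p entries share no seed with the 3p arm or with each other. miR-29b-1-5p starts 1 base earlier than miR-29b-2-5p, so their seeds CUGGUUU and UGGUUUC are the same stretch shifted by 1 base. Over the 22 bases that align, miR-29b-1-5p and miR-29b-2-5p differ at 2 positions (U11C and U19C), and they have 8 G and 7 G. miR-29a-5p and miR-29c-5p have 5 G each. Of 2370 mature miRNAs in RefSeq, 0 outside the family had the seed AGCACCA at bases 2 to 8, and 1, miR-767-5p, had its last 6 bases at positions 2 to 7.

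The precursors lie in 2 pairs on different chromosomes, and they are shown to place the arms in their hairpins, with the annotated mature strands in capitals. All are on the minus strand.
MIR29A: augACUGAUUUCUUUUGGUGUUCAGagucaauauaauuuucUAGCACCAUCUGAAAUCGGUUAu
MIR29B1: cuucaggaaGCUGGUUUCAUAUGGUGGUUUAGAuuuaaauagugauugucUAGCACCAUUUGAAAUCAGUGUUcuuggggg
MIR29B2: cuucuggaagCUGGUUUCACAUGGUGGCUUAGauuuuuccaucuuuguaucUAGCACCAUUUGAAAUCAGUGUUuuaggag
MIR29C: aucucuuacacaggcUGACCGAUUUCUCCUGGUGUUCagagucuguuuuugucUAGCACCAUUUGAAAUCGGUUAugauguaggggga

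MIR29A (chr7:130876747-130876810) and MIR29B1 (chr7:130877459-130877539) are separated by 648 bases. In GENCODE release 44 both overlap an exon of the long noncoding RNA LINC-PINT on the same strand, and LINC00513 runs over them on the other strand. MIR29C (chr1:207801852-207801939) and MIR29B2 (chr1:207802443-207802523) are separated by 503 bases and overlap exons of their host transcript MIR29B2CHG. MIR29B1 and MIR29B2 give the same miR-29b-3p, so the reads of this entry cannot be assigned to a locus. Only the 5p entries tell these precursors apart.

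The counts on miRNAs summed to between 16466178 and 19628046 per input library and to between 1654102 and 3105129 per m7G-RIP library. Levels are given as CPM, the count of an entry scaled to the same total of miRNA reads in each library. A count of 3 was worth 0.153 to 0.182 CPM in the input libraries and 0.966 to 1.81 CPM in the m7G-RIP libraries. Entries of about 1 CPM in the input are therefore near the limit of what m7G-RIP could show to be lost. All 8 epithelial and intestinal miRNAs chosen as markers, such as miR-192-5p and miR-200c-3p, were present at 178 CPM or more in the input. Of 14 markers of other cell types, 9 were under 10 CPM. The highest were miR-9-5p at 1995 CPM, miR-1-3p at 440 CPM, miR-143-3p at 119 CPM and miR-133a-3p at 41.5 CPM. Their part in the results on miR-29 was not tested.

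In the input, the family took 0.0532% ± 0.0020 (SD, n = 3) of all miRNA reads, and in m7G-RIP 0.0101% ± 0.0005 (SD, n = 3). Its share was thus 5.25 times lower after immunoprecipitation. miR-29a-3p led in both groups, followed by miR-29b-3p. Both strands of miR-29c were present, and it was the 5p strand of miR-29c that came next. miR-29b-1-5p went the other way, with higher CPM in 2 of the 3 m7G-RIP libraries than in any input library. The CPM of miR-29a-5p, close to the detection limit, overlapped between the groups.

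miR-29a-3p had 6362, 7185 and 6359 counts in the input libraries 1, 2 and 3, and 233, 207 and 126 counts in the m7G-RIP libraries 1, 2 and 3. At its input level these m7G-RIP libraries would have held between 625 and 1174 counts. Its mean level was 378 ± 10.6 CPM (SD, n = 3) in the input, where it ranked 88th of all entries, and 72.8 ± 5.3 CPM (SD, n = 3) in m7G-RIP, and the groups did not overlap. miR-29b-3p had 1933, 2003 and 1718 counts in the input and 44, 42 and 17 in m7G-RIP. This corresponds to 107 ± 7.53 CPM (SD, n = 3) and 12.7 ± 2.12 CPM (SD, n = 3), again without overlap. miR-29c-3p, which differs from miR-29a-3p by C10U alone, had 111, 175 and 139 counts in the input and 8, 6 and 2 in m7G-RIP. Its level was 8.01 ± 1.19 CPM (SD, n = 3) in the input and 1.91 ± 0.691 CPM (SD, n = 3) in m7G-RIP, also without overlap. miR-29c-3p reads amounted to 2.12% ± 0.35 (SD, n = 3) of the miR-29a-3p reads in the input and to 2.64% ± 0.95 (SD, n = 3) in m7G-RIP. The methods allow 1 mismatch per read, and the part of misread miR-29a-3p in the miR-29c-3p entry was not tested.

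Among the 5p entries, miR-29c-5p was the most abundant, with 558, 497 and 518 counts in the input and 19, 29 and 11 in m7G-RIP. Its level was 30.1 ± 4.26 CPM (SD, n = 3) in the input against 7.38 ± 1.71 CPM (SD, n = 3) after immunoprecipitation, and the groups did not overlap. miR-29b-2-5p had 107, 104 and 109 counts in the input and 2, 2 and 0 in m7G-RIP, where between 10.1 and 19.0 counts per library would have kept its input level. miR-29b-1-5p had 28, 22 and 15 counts in the input and 21, 30 and 2 in m7G-RIP. In CPM these were 1.68, 1.12 and 0.911 in the input and 6.80, 9.66 and 1.21 in m7G-RIP, so that m7G-RIP replicate 3 lay within the range of the input while the other two lay above it. miR-29a-5p was close to the detection limit, with 29, 12 and 9 counts in the input and 0, 0 and 1 in m7G-RIP, where its input level would have given only between 1.60 and 3.00 counts per library. A loss of miR-29a-5p was therefore not detectable from single m7G-RIP libraries at this depth.

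**Figure D1:**
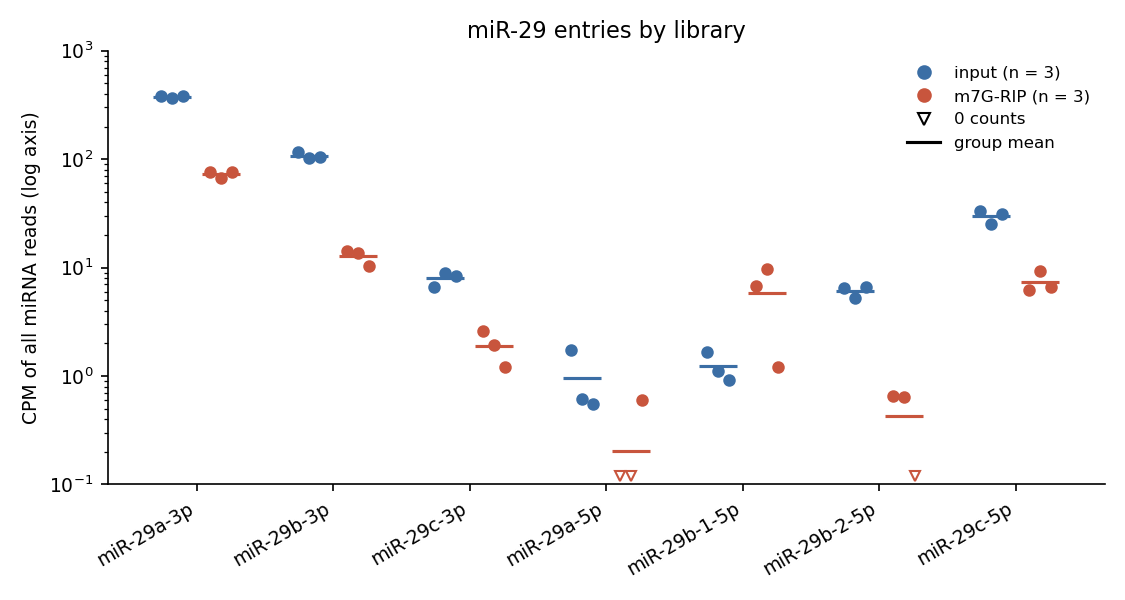
CPM of all miRNA reads (log axis) of the 7 miR-29 entries in each of the 3 input (blue) and 3 m7G-RIP (red) libraries, with group means as lines and libraries with 0 counts as open triangles at the foot of the axis. miR-29a-3p falls from a mean of 378 to 72.8 CPM, and miR-29b-1-5p has m7G-RIP values both inside and above its input range.

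The order of levels in the input was miR-29a-3p, miR-29b-3p, miR-29c-5p, miR-29c-3p, miR-29b-2-5p, miR-29b-1-5p and miR-29a-5p. The first 3 were separated by gaps far beyond their SDs. miR-29c-3p and miR-29b-2-5p (6.11 ± 0.713 CPM, SD, n = 3) did not overlap but lay within 2 SDs of each other, and miR-29b-1-5p (1.24 ± 0.398 CPM, SD, n = 3) and miR-29a-5p (0.966 ± 0.672 CPM, SD, n = 3) overlapped. Ligation during library preparation favours some ends over others, so levels of different sequences are compared with that limit. The miR-29b-3p entry has a further limit, in that a read that matches both loci may have been counted at each. Counts of miR-6859-5p, an entry with 4 loci, were whole multiples of 4 in 6 of 6 libraries. miR-199a-3p and miR-199b-3p have the same mature sequence, with 2 loci and 1 locus in RefSeq, and had 8, 6 and 10 against 4, 3 and 5 counts in m7G-RIP. In the input, miR-199a-3p had 272, 303 and 288 counts, and miR-199b-3p had 136 in replicate 1 and 144 in replicate 3. The proportion in input replicate 2 was nearly the same. The counts of miR-6859-5p and of this pair thus followed the number of loci. The counts of miR-29b-3p were even in 3 of 6 libraries. Since 303 is odd as well, odd counts do not exclude counting at each locus. Whether reads of miR-29b-3p were counted at each of its 2 loci was not tested directly. Its ratio of m7G-RIP to input would be affected only if this differed between the groups.

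Enrichment of m7G-RIP over input was estimated with edgeR's quasi-likelihood test over all 800 miRNAs that passed its filter on low counts. TMM scaling, which corrects for a change in the make-up of a library, was used, and p-values were adjusted over all 800 by the Benjamini-Hochberg method. 6 of the 7 miR-29 entries were tested, and miR-29a-5p had too few counts. Of these 6, 5 were depleted and 0 enriched at an adjusted p-value under 0.05, while of all tested miRNAs 78.2% were called, 38.1% as depleted and 40.1% as enriched. miR-29b-2-5p passed the filter through its input counts alone, while miR-29b-1-5p would not have passed without its m7G-RIP counts. Both were thus tested because of the group where they were high. Only miR-29a-3p, miR-29b-3p and miR-29c-5p had at least 10 counts in every library. The members' median log2 enrichment was -3.28, against 0.16 over all tested miRNAs. In CPM of total counts, every m7G-RIP library was below every input library for the same 5 entries, as for 26.8% of all tested miRNAs.

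On the 3p arm, the log2 enrichment of miR-29a-3p was -3.47 (± 0.16, standard error, SE; edgeR, adjusted p = 5.01e-10), which is 11.1-fold lower in m7G-RIP. miR-29b-3p had the lowest value of the arm, -4.13 (± 0.22 SE; edgeR, adjusted p = 1.96e-09), or 17.5-fold lower. miR-29c-3p followed at -3.06 (± 0.42 SE; edgeR, adjusted p = 2.38e-05), or 8.32-fold lower. Among the 800 tested miRNAs, miR-29b-3p ranked 65th from the lowest, miR-29a-3p 95th and miR-29c-3p 132nd. The 3 entries of the arm with the same seed were thus all in the lower range of the distribution without being at its end.

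On the 5p arm, miR-29c-5p lay at a log2 enrichment of -3.09 (± 0.27 SE; edgeR, adjusted p = 2.88e-07), or 8.49-fold lower. miR-29b-2-5p had the lowest fitted value of the family, -4.61 (± 0.57 SE; edgeR, adjusted p = 8.26e-06), and ranked 46th from the lowest. With only 4 counts in all m7G-RIP libraries together, that value depends on the prior count of the fit. The plain ratio of its pooled counts, scaled by TMM, was 0.0399 of the input with a 95% exact interval from 0.0108 to 0.103 that covers counting error only. For miR-29a-5p the same ratio was 0.0638 (95% exact interval from 0.0016 to 0.372, counting error only), on 1 count in m7G-RIP. miR-29b-1-5p had a positive log2 enrichment of 1.27 (± 0.59 SE; edgeR, p = 0.0488, adjusted p = 0.0613), which missed the threshold. Without m7G-RIP replicate 3, where it had 2 counts, it was called enriched at 1.62 (edgeR, adjusted p = 0.00534), along with 34.5% of the miRNAs then tested. Without m7G-RIP replicate 2, where it had 30 counts, it was at 0.65 (edgeR, adjusted p = 0.404).

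**Figure D2:**
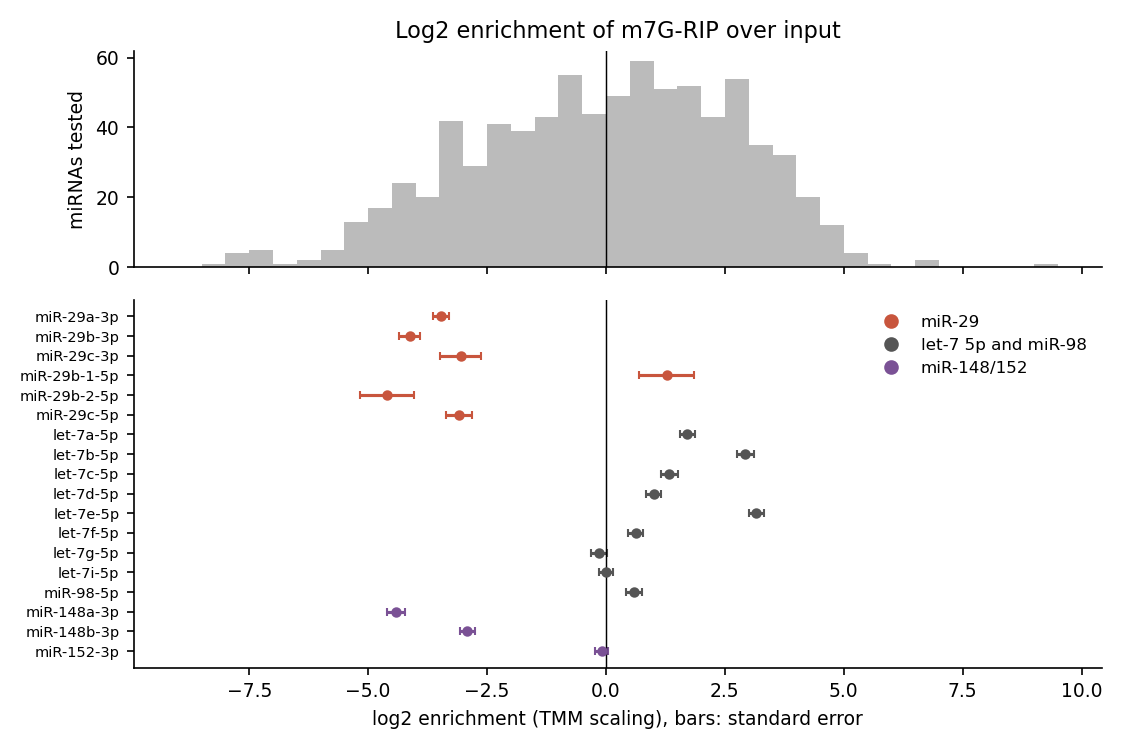
Log2 enrichment of m7G-RIP over input. The upper panel gives the number of tested miRNAs in bins of log2 enrichment, and the lower panel the values with standard errors of the 6 tested miR-29 entries (red), the let-7 5p arms with miR-98-5p (grey) and miR-148a, miR-148b and miR-152 (purple). The miR-29 entries lie between -4.61 and -3.06 except miR-29b-1-5p at 1.27.

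The scaling sets where 0 lies on this axis. Relative to TMM, scaling by total counts moved the median of all tested miRNAs up by 1.09 and upper-quartile factors by 0.82, while DESeq2's size factors moved it by -0.34. miR-29a-3p was at -2.38 with total counts and at -3.82 with DESeq2's size factors, miR-29c-3p and miR-29c-5p were at -1.99 and -2.01 with total counts, and the number of depleted entries was 5 under each of these scalings, with 24.8% of all tested miRNAs depleted under total counts, 28.4% under upper-quartile factors and 42.8% under DESeq2's size factors. miR-29b-1-5p moved to the other side of the threshold, with a log2 enrichment of 2.32 under total counts (edgeR, adjusted p = 0.00455) and 2.11 under upper-quartile factors (edgeR, adjusted p = 0.00358). Enriched calls made up 55.2% of all tested miRNAs under total counts and 52.2% under upper-quartile factors. The number of depleted miR-29 entries was also 5 in DESeq2's Wald test (42.1% of all tested miRNAs depleted), with a replicate block (36.9%) and at an adjusted p-value under 0.01 (33.9%). It was 6 of 7 with no filter (24.3%) and 3 of 3 where each library had to hold 10 counts or more (41.1%). With an input library left out it was 5 (35.5%, 36% and 35% depleted without replicates 1, 2 and 3). With an m7G-RIP library left out it was 6 (39%, 37.4% and 37%), since miR-29a-5p then passed the filter, through its input counts alone. miR-29a-5p was also the entry added with no filter. With 0, 0 and 1 counts of it in m7G-RIP, these calls are no separate support for its loss.

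**Figure D3:**
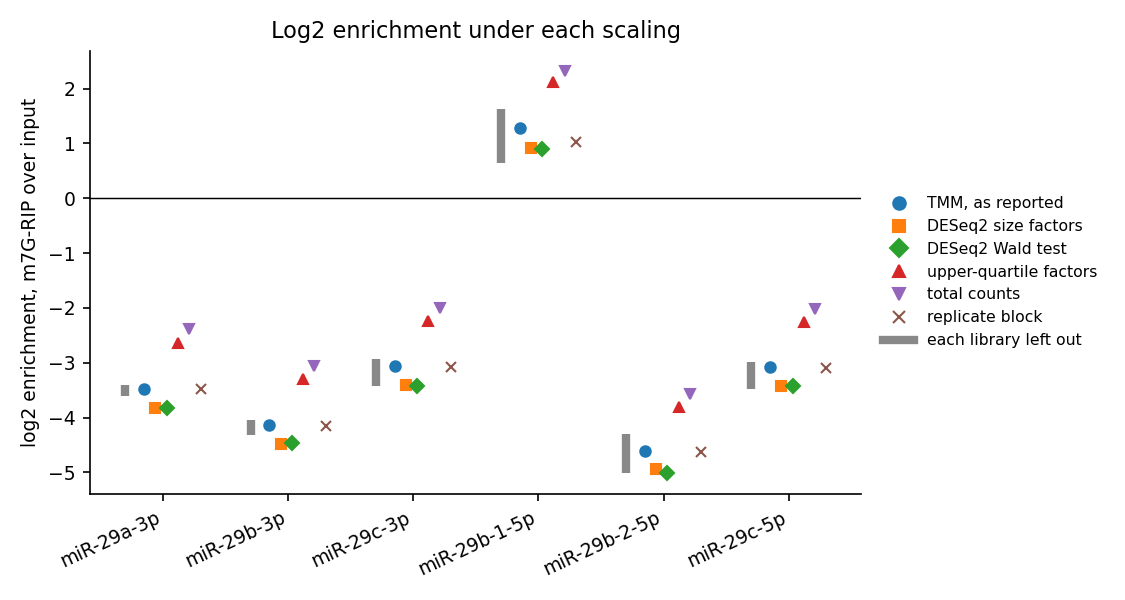
Log2 enrichment of the 6 tested miR-29 entries under each scaling, in DESeq2's Wald test and with the replicate block (symbols), and the range with each library left out in turn (grey bars). Of the 6 entries, 5 stay below 0 and miR-29b-1-5p stays above 0 under every setting drawn.

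Ratios between entries of the same library need no scaling, and they were compared between the groups by exact permutation tests over the 6 libraries. With 3 libraries against 3 the smallest two-sided p such a test can give is 0.1, so no pair could pass 0.05. The clearest difference was between both 5p strands of miR-29b. miR-29b-1-5p made up 20.7%, 17.5% and 12.1% of the miR-29b 5p reads in the input libraries and 91.3%, 93.8% and 100% in the m7G-RIP libraries. The last of these rests on 2 reads, with a 95% exact binomial interval from 15.8% to 100%, while the first rests on 23 reads (72.0% to 98.9%) and the second on 32 reads (79.2% to 99.2%). The groups did not overlap, and the mean rose from 16.8% ± 4.36 (SD, n = 3) to 95.02% ± 4.48 (SD, n = 3; exact permutation test, two-sided, p = 0.1, adjusted over 7 shares to 0.175). On the log2 scale with 0.5 added to each count, the ratio of miR-29b-1-5p to miR-29b-2-5p was 5.33 higher in m7G-RIP (p = 0.1, exact permutation test, adjusted over 8 pairs to 0.2). These strands are the ones that differ by U11C, U19C and the position of their ends.

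The 3p share of miR-29b reads was 93.6% ± 0.42 (SD, n = 3) in the input and 70.6% ± 16.9 (SD, n = 3) in m7G-RIP, with 65.7%, 56.8% and 89.5% in the single m7G-RIP libraries. All 3 were below the lowest input library, at 93.3%. With the miR-29b-3p counts halved, in case each read was counted at both loci, the difference in this share would be -31.5 rather than -23.0 percentage points. The ratio of miR-29b-3p to miR-29b-1-5p fell by 5.01 on the log2 scale, whereas that of miR-29b-3p to miR-29b-2-5p differed by 0.32, overlapped between the groups and changed its sign without m7G-RIP replicate 3 (-0.013). miR-29a gave 99.7% ± 0.17 (SD, n = 3) of its reads from the 3p arm in the input and 99.7% ± 0.45 (SD, n = 3) in m7G-RIP. The m7G-RIP values of miR-29a rest on 0, 0 and 1 counts of miR-29a-5p, so a relative loss of this strand could not be seen. For miR-29c, more reads came from the 5p arm. Its 3p arm gave only 21.3% ± 4.73 (SD, n = 3) of its reads in the input and 20.7% ± 7.77 (SD, n = 3) in m7G-RIP, and the groups overlapped. Ligation bias limits such a comparison between the strands. The m7G-RIP values of miR-29c rest on 13 to 35 reads per library.

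Among the 3p reads, the part of miR-29a-3p was 76.6% ± 0.86 (SD, n = 3) in the input and 83.3% ± 3.15 (SD, n = 3) in m7G-RIP, and that of miR-29b-3p was 21.8% ± 1.09 (SD, n = 3) and 14.5% ± 2.50 (SD, n = 3). For both the groups did not overlap (p = 0.1 each, exact permutation test, two-sided, adjusted to 0.175). If each miR-29b-3p read had been counted at both loci, halving its counts would bring the difference in its share from -7.22 to -4.36 percentage points, and that of miR-29a-3p from 6.67 to 3.83. The ratio of miR-29a-3p to miR-29b-3p was 0.69 higher on the log2 scale in m7G-RIP, and that of miR-29b-3p to miR-29c-3p was 1.12 lower, both without overlap. Relative to either of the other 3p strands, miR-29b-3p was thus lower in every m7G-RIP library than in any input library. The ratio of miR-29a-3p to miR-29c-3p, the strands that differ only by C10U, was 0.42 lower and overlapped between the groups. It was 0.24 lower without m7G-RIP replicate 1, 0.68 lower without replicate 3, where the groups no longer overlapped, and 0.26 lower with no count added.

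**Figure D4:**
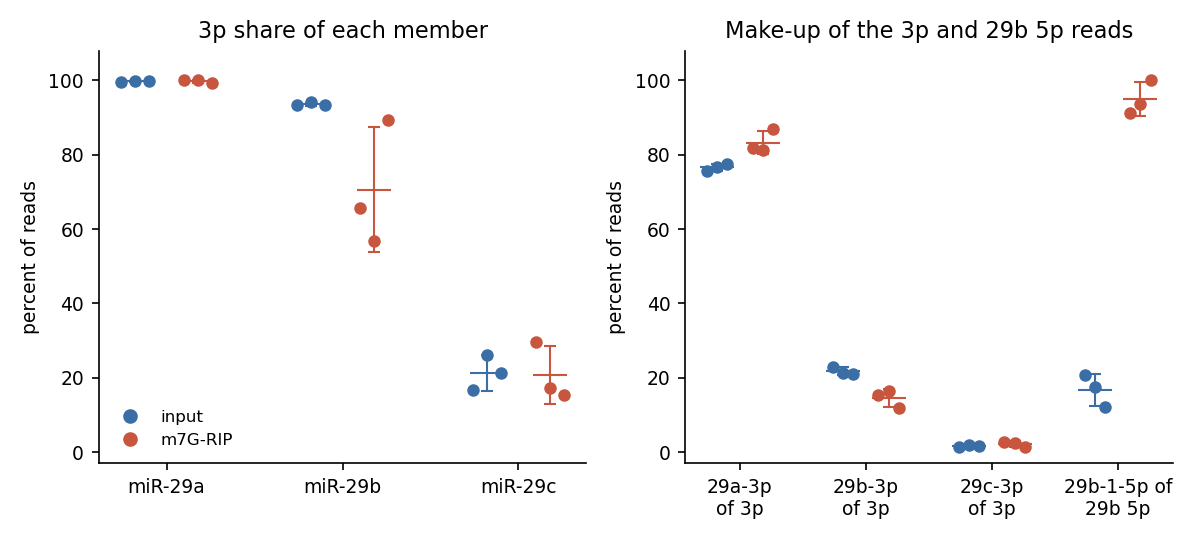
Percent of reads in each input (blue) and m7G-RIP (red) library, with means and SDs (n = 3). The left panel gives the 3p share of miR-29a, miR-29b and miR-29c, and the right panel the parts of each 3p strand in all 3p reads and of miR-29b-1-5p in the miR-29b 5p reads, which goes from 16.8% to 95.02%.

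Since m7G can form only at a guanosine, the G content of the mature sequences was set beside the enrichment for the 714 tested miRNAs with a sequence in RefSeq. Across these miRNAs, which are not independent replicates and share the same 6 libraries, the percent of G and the log2 enrichment had a Spearman's rho of 0.497 and a Pearson's r of 0.498, given as a description. The relation was not a straight line. The lowest medians of log2 enrichment were at 4 G (-1.67, n = 82 without the family) and 5 G (-1.41, n = 101), and they rose to 3.05 at 11 G (n = 43). All 3 strands of the 3p arm fall in the group with 4 G, in which 63.4% of the other miRNAs were depleted. Even there they were in the lower range, since 12 of the 82 others were lower than miR-29b-3p, 17 were lower than miR-29a-3p and 21 were lower than miR-29c-3p. In the group with 5 G, 30 of 101 others were lower than miR-29c-5p.

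The strands of the miR-29b 5p arm had different fitted values at nearly the same G content. Each was tested because of the group where it was high, and miR-29b-2-5p had only 4 counts in all m7G-RIP libraries together. miR-29b-1-5p, with 33.3% G, lay close to the median of the 68 other miRNAs with 8 G, which was 0.92. miR-29b-2-5p, with 31.8% G, lay far below the median of the 76 others with 7 G, which was -0.79, and 4 of those were lower. Both have 3 runs of GG, while the other tested entries have 1 or, for miR-29b-3p, 0. Among the 97 other tested miRNAs with 3 such runs, 13.4% were depleted and 77.3% enriched. Their median log2 enrichment was 2.43, above both miR-29b-1-5p and miR-29b-2-5p.

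**Figure D5:**
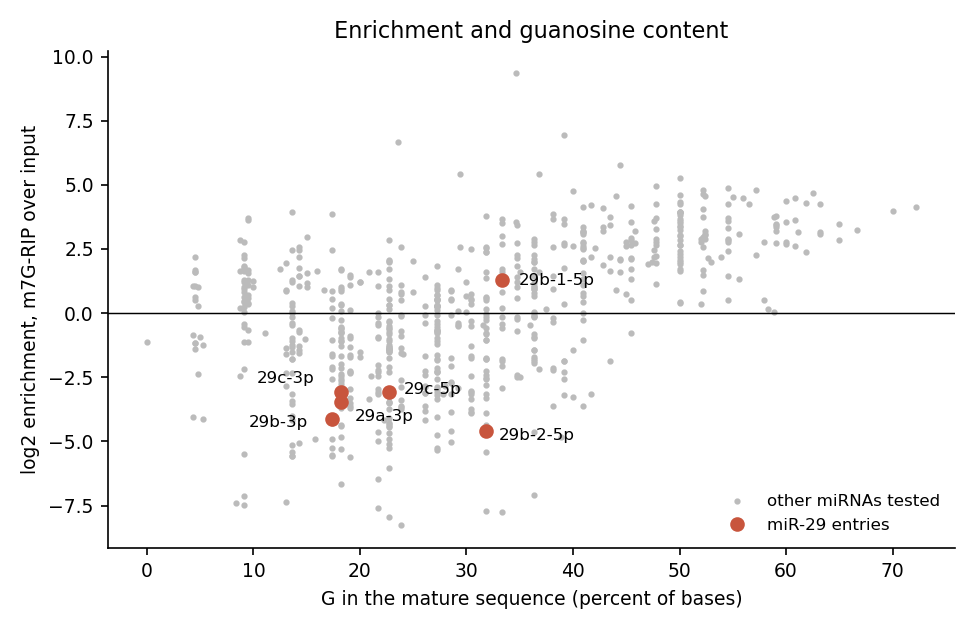
Log2 enrichment of m7G-RIP over input against the percent of G in the mature sequence for 714 tested miRNAs, with the 6 tested miR-29 entries in red. The 3p strands lie near 18% G between -4.13 and -3.06, and miR-29b-1-5p and miR-29b-2-5p have 33.3% and 31.8% G with values of 1.27 and -4.61.

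The let-7 5p arms with miR-98-5p, and miR-148a-3p, miR-148b-3p and miR-152-3p, which are known for repressing DNMT1, were used for comparison. Both lists were chosen with earlier results of these data known, so the comparisons with them are descriptive. Of the 9 entries of the let-7 list, 7 were enriched and 0 depleted, against 40.1% and 38.1% of all tested miRNAs, with a median log2 enrichment of 1.00. The reads of the miR-29 3p arm relative to those of let-7 and miR-98 were 4.55 lower on the log2 scale in m7G-RIP than in the input, with SDs of 0.13 in the input and 0.11 in m7G-RIP (n = 3 each; p = 0.1, the smallest an exact permutation test can give here). Relative to the reads of miR-148a-3p, miR-148b-3p and miR-152-3p, the miR-29 3p arm was instead 0.56 higher in m7G-RIP (exact permutation test, p = 0.1). Most of these reads were miR-148a-3p, at 35438 CPM in the input against 1052 for miR-148b-3p and 277 for miR-152-3p. This ratio thus mainly compares the arm with miR-148a-3p. The SDs of this ratio were 0.14 in the input and 0.11 in m7G-RIP (n = 3 each), and the groups did not overlap. miR-148a-3p was at a fitted value below that of each 3p strand of miR-29, -4.41 (± 0.19 SE; edgeR, adjusted p = 2.28e-10). The fitted values of miR-148b-3p, -2.91, and miR-152-3p, -0.09, were above that of each 3p strand of miR-29, and miR-152-3p missed the threshold. miR-767-5p, with the offset seed, has the sequence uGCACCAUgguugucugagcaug and had 702, 803 and 790 counts in the input and 98, 50 and 60 in m7G-RIP. It was depleted, at -1.76 (± 0.27 SE; edgeR, adjusted p = 5.26e-05).

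The 5 miRNAs whose levels over the 6 libraries were most like those of miR-29a-3p were miR-21-5p, miR-372-5p, miR-429, miR-181a-5p and miR-374a-5p, among 263 others whose average log2 CPM was 5 or more. Their Pearson correlation with miR-29a-3p on the log2 CPM scale was 0.9996 or more, a measure that here mostly reflects the step from input to m7G-RIP, and their log2 enrichments lay between -4.90 and -3.81. In the order of log2 enrichment, the called miRNAs next to miR-29a-3p were miR-133a-3p and miR-34c-5p below it, at -3.48 and -3.49, and miR-199b-3p and miR-199a-3p above it, both at -3.45. The last pair have the same mature sequence, so their values are not separate measurements. These neighbours had at most 26 counts in any m7G-RIP library, against 126 or more for miR-29a-3p.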

How the data were processed

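Small RNA libraries of Caco-2 cells (3 input, 3 m7G-RIP) were prepared with the NEBNext Small RNA kit. The authors trimmed adaptors with Trimmomatic, mapped reads to GRCh38 and counted them on mature miRBase entries with featureCounts. The methods name STAR, with up to 10 loci and 1 mismatch per read, while the submitters' processing notes name Bowtie2. How multi-locus reads were counted is not given in the sources used here. The deposited table holds the counts of each library as whole numbers, neither normalized nor pooled.

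Entries were filtered with filterByExpr (minimum count of 10, minimum total of 15), scaled with TMM and tested with edgeR 4.0.16 in R 4.3.3 (quasi-likelihood test, Benjamini-Hochberg adjustment over all entries tested, threshold 0.05). A standard error is the absolute log2 enrichment over the square root of F. Alternatives included DESeq2 1.42.0. The edgeR steps were tested on simulated counts with as many changes up as down, which cannot test the choice of scaling. Shares and ratios within libraries were compared with exact permutation tests in scipy 1.17.1. Total counts were 16466178 to 19628046 in input and 1654102 to 3105129 in m7G-RIP, which limits the precision of rare entries, and reads carry no molecular identifiers. No pair of libraries of a group was a copy (chi-square over its degrees of freedom between 17.5 and 105).

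The members and lists were chosen with earlier results of these data known. The entries named are the 7 members, the seed matches, the let-7 5p and miR-148/152 lists, the 5 most like miR-29a-3p and its neighbours in order of enrichment, 2 on each side, with examples from the marker lists; miR-6859-5p was added after its values were seen. Mature sequences and hairpins are from RefSeq (GRCh38.p14), where 2281 of the 2588 entries matched by name, and host genes from GENCODE release 44.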

Additional observations from a re-analysis of the deposited data

How the results depend on the processing

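Of the miR-29 entries, 5 were depleted under TMM. The number was 5 under each other scaling, with DESeq2's Wald test, with the stricter threshold of 0.01 and with the replicate block, 6 when no filter was used, and 3 when every library had to hold at least 10 counts, where only 3 entries were tested. Leaving out single libraries gave 5 to 6. Over these settings, 24.3% to 42.8% of all tested miRNAs were depleted. The entry added where the number was 6 was miR-29a-5p, with 0, 0 and 1 counts in m7G-RIP. Same-numbered libraries did not deviate together (correlations of -0.0142, -0.0275 and 0.0600), and the block changed no call on the family. Over all miRNAs the block gave 296 enriched and 295 depleted, against 321 and 305 without it. miR-29b-1-5p passed the threshold with total counts, with upper-quartile factors and without m7G-RIP replicate 3. Under these settings 55.2%, 52.2% and 34.5% of all tested miRNAs were enriched. The log2 enrichment of miR-29b-1-5p ranged from 0.65 to 1.62 over the libraries left out. In DESeq2's Wald test it was 0.90 (adjusted p = 0.246). Halving the miR-29b-3p counts moved the difference in its share of 3p reads to -4.36 percentage points. Small differences changed sign, and the cause was not tested. The log2 ratio of miR-29b-3p to miR-29b-2-5p was -0.15 with an added count of 1 and from -0.013 to 0.51 with single libraries left out. That of miR-29c-3p to miR-29c-5p was -0.082 with an added count of 0 and from -0.28 to 0.25 with single libraries left out, and that of miR-29a-3p to miR-29a-5p was from -1.29 to 0.013. With same-numbered libraries paired (replicate block), sign flips of 3 differences cannot give an exact p under 0.25. Depth limits miR-29c-3p, miR-29a-5p, miR-29b-1-5p and miR-29b-2-5p most, at 0 to 30 counts per m7G-RIP library.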
